A study of Mus musculus with 20 samples.

Results

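The p53 knockout (KO) organoid lines of this mouse series fall into a pair with little residual Trp53 transcript and a pair with more. They were chosen by a measured value: counts were summed per line, and Trp53 was expressed as counts per 1000000 counts of the line total (CPM). Lines 1270 and 794, with 5 libraries, lay below 10 CPM and are called low-Trp53 lines. Lines 650 and 801, with 5 libraries, lay above 10 CPM and are called high-Trp53 lines. These 10 libraries are all the KO libraries among the 20 libraries, from 8 lines, that were sequenced.

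The samples were organoids of mouse stomach, cultures in which epithelial cells form small hollow bodies. All were of the BL/6 strain, kept in conditioned medium, and their messenger RNA was sequenced. Of the low-Trp53 lines, 1270 (2 libraries) was labelled non-dysplastic and had its p53 removed ex vivo, while 794 (3 libraries) was labelled dysplastic and had it removed in vivo. Of the high-Trp53 lines, 650 (2 libraries) was labelled non-dysplastic and 801 (3 libraries) dysplastic, and p53 had been removed in vivo in both. The wild-type (WT) lines were 1269 and 300, labelled non-dysplastic with 2 libraries each, and 565 and 752, labelled dysplastic with 3 libraries each. The labels name neither the deleted part of Trp53 nor what removed it, and they do not say whether a line is a clone. In the non-dysplastic pair, residual Trp53, the mode of KO and the sex of the line cannot be told apart.

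The protein p53 is a transcription factor that is stabilised by DNA damage and other stress and switches on genes of cell-cycle arrest, repair, apoptosis and its own feedback control. The Mgmt protein removes alkyl groups from guanine in DNA, and the gene is known to be silenced by promoter methylation in many tumours. Surface mucous (pit) cells of the stomach make the mucin Muc5ac and the gastrokines, small secreted proteins of the gastric surface.

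Library totals ran from 5669521 to 16323270 counts and line totals from 22217126 to 36880593. The libraries of a line share their source, so the line was the unit of comparison, 2 against 2. Separate animals are not stated for the lines, and a p-value therefore reflects only how far these lines spread, part of which may be technical. Some libraries stood apart. The last-numbered libraries of 6 lines (300, 650, 565, 752, 794 and 801) differed from the first of their line in a shared way, with correlations across genes of 0.58 to 0.85 between lines, against -0.25 to 0.18 for lines 1269 and 1270 with these. The 2 libraries of line 1270 differed over 2-fold in 532 of 10481 genes above 5 CPM (5.08%), surface mucous genes among them, so ranked genes whose fold change moves over 1.5-fold without library 1 are given both ways. Line 650 was male and the other KO lines female, by Xist and the Y-linked gene Ddx3y. Epcam, a surface protein that defines epithelial cells, was abundant everywhere, relative to the line total at 592 and 894 CPM in lines 1270 and 794, at 847 and 1050 CPM in lines 650 and 801, and at 589 to 839 CPM in WT lines. The 10 epithelial markers summed to 13600 and 15100 CPM in lines 1270 and 794, below the 17400 and 17700 CPM of lines 650 and 801 and the 16900 to 17900 CPM of WT lines. All 10 had negative log2 fold changes between low-Trp53 and high-Trp53 lines, with a median of -0.30. In both low-Trp53 lines 4 were lower (12.9% of all genes), or 1 without the 6 last-numbered libraries. The part of a different cell makeup in the results was not tested.

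Trp53 read 5.30 and 6.65 CPM in lines 1270 and 794, against 26.6 and 23.2 CPM in lines 650 and 801. The WT lines lay between 105 and 163 CPM. Line 794 was the nearest inside the threshold of 10 CPM and line 801 the nearest outside it. By library, relative to the library total, Trp53 was 6.21 and 4.59 CPM (line 1270) and 6.27, 4.27 and 10.4 CPM (line 794) in low-Trp53 libraries. It was 22 and 32.8 CPM (line 650) and 26, 22.1 and 18.9 CPM (line 801) in high-Trp53 libraries. No low-Trp53 library reached a high-Trp53 library, although library 3 of line 794 lay above 10 CPM. These values chose the lines and are given without a test. Wrap53, which overlaps Trp53 on the opposite strand, read 19.3 and 17.3 CPM in lines 1270 and 794, against 14.2 and 18.4 CPM in lines 650 and 801. Whether the counting separated the strands is not given in the sources used here.

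**Figure D1:**
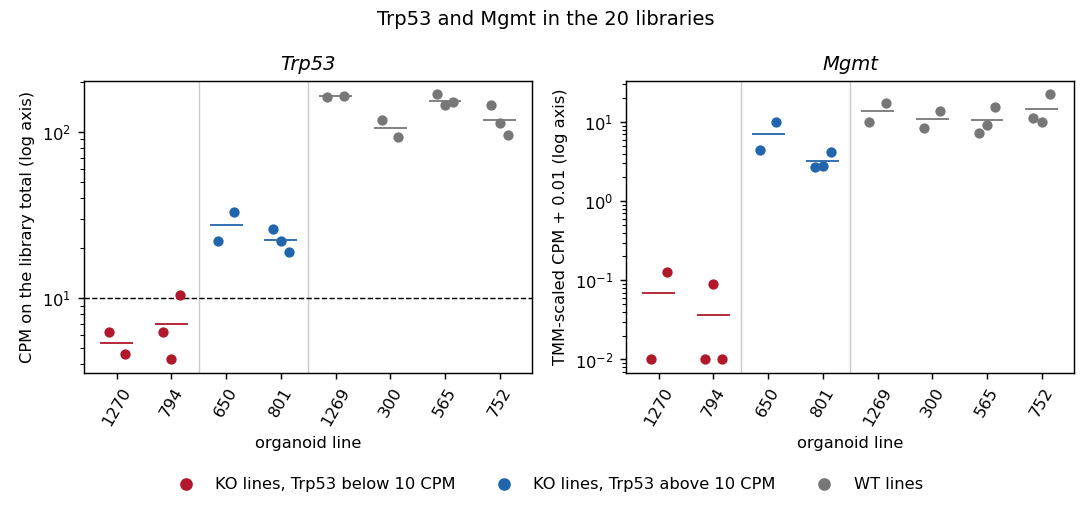
Trp53 (left, CPM on the library total) and Mgmt (right, TMM-scaled CPM + 0.01) in each of 20 libraries on log axes. Points are libraries, short lines are means over the libraries of a line, and the dashed line marks 10 CPM. Low-Trp53 lines stand at the left of each panel and have Mgmt near 0 in all 5 libraries.

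Mgmt was almost absent from the low-Trp53 lines. It had 2 counts in line 1270 and 1 in line 794, against 155 in line 650 and 95 in line 801, and 230 to 496 in WT lines. As TMM-scaled CPM, the scale used from here on (CPM on library totals adjusted by edgeR's trimmed mean of M values), Mgmt read 0 and 0.119 in line 1270 and 0, 0.0805 and 0 in line 794. It read 4.42 and 9.86 CPM (line 650) and 2.72, 2.81 and 4.23 CPM (line 801) in high-Trp53 libraries, and from 7.28 to 22.4 with a median of 10.6 CPM in the 10 WT libraries. All 5 low-Trp53 libraries lay below every other library of the series. Relative to total counts, low-Trp53 lines held 0.972% of the Mgmt level of high-Trp53 lines (95% exact interval 0.199 to 2.87%, covering counting error only). They held 0.38% of the WT level (0.0782 to 1.11%), while high-Trp53 lines held 39.1% of it (34.0 to 44.7%). Mgmt was named together with this grouping when its values were known, so it is described without a test and left out of the counts of ranked genes that passed one.

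The stretch before an annotated start of Mgmt is printed because the gene is nearly silent on one side and CG pairs are the bases that can carry methylation, which was not measured here. It covers 250 bases of RefSeq GRCm38.p6, chr7:136894336-136894585 on the plus strand, before 1 of 2 listed starts, with CG pairs in capitals.
Mgmt: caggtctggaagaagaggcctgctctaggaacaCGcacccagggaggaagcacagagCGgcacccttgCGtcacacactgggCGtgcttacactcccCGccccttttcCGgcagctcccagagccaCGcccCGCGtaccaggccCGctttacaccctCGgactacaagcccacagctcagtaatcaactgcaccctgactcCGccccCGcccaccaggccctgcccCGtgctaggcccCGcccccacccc
It holds 15 CG pairs, and 27.3% of 32851 mouse promoters of this length hold at least as many, with a median of 6. Of the genes around Mgmt in the RefSeq order, Ebf3, a transcription factor next to it, stayed at or below 0.0428 CPM in every KO line. Mki67, a proliferation marker on the other side, read 514 and 276 CPM of the line total in lines 1270 and 794, against 197 and 350 CPM in lines 650 and 801. Glrx3, a glutaredoxin, further along, read 13.2 and 12.8 CPM of the line total in lines 1270 and 794, against 19 and 15.2 CPM in lines 650 and 801. Of the other 19 genes of alkylation and base repair that were tested, the low-Trp53 lines lay above both high-Trp53 lines for 2 and below for 3, near the shares of 11% and 12.9% over all genes. Among the lower, Polb, the repair polymerase beta, read 23.6 and 26.2 CPM in lines 1270 and 794, against 32.8 and 26.3 CPM in lines 650 and 801.

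Across all genes other than Trp53, edgeR's quasi-likelihood test with Benjamini-Hochberg adjustment called none of 13475 genes between low-Trp53 and high-Trp53 lines (0%). At an unadjusted p under 0.05 there were 157 genes higher (1.17%) and 505 lower (3.75%), and 5% of the tested genes is 674. Mgmt aside, the smallest adjusted p was 0.0721, shared by 4 genes. DESeq2 on the same line sums called 29 genes higher (0.219%) and 147 lower (1.11%), and limma-voom with libraries as samples and lines as correlated blocks called 83 and 220. DESeq2 and limma-voom shared 139 of these calls. Both low-Trp53 lines lay above both high-Trp53 lines for 1480 genes (11%) and below for 1737 (12.9%). All 5 low-Trp53 libraries lay above all 5 high-Trp53 libraries for 74 genes (0.549%) and below for 292 (2.17%). With average log2 CPM above 2, separated lines, the same sign in both dysplasia classes and a log2 fold change of at least 1 in size, 60 genes were higher and 219 lower, and the 12 with the smallest p in each direction are described. Of the 23 other than Mgmt, 0 passed edgeR's adjusted threshold and DESeq2 called all, while limma-voom called 6 of the 12 higher and all 11 lower genes. The 23 were ranked on these same counts, so the DESeq2 and limma-voom calls give no independent support.

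Higher in low-Trp53 lines were secreted products of the gastric surface epithelium, in 4 of their 5 libraries. Muc5ac, the gel-forming mucin of pit cells, read 423 and 1.85 CPM (line 1270) and 183, 875 and 300 CPM (line 794) in low-Trp53 libraries. It read 2.21 and 1.42 CPM (line 650) and 1.32, 2.21 and 1.02 CPM (line 801) in high-Trp53 libraries, and from 0.145 to 15.6 with a median of 3.44 CPM in WT libraries. Library 1 of line 1270 and all libraries of line 794 lay above every high-Trp53 and WT library, and library 2 of line 1270 lay among the high-Trp53 libraries. The log2 fold change of Muc5ac was 7.4 ± 0.59 (SE, edgeR adjusted p = 0.0721). Without library 1 of line 1270 it was 4.45, with an edgeR adjusted p of 0.997, and without library 2 it was 8.00, with an edgeR adjusted p of 0.0305.

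Gkn1 and Gkn2, the gastrokines, followed the same libraries. Gkn1 read 1040 and 14.5 CPM (line 1270) and 2450, 3050 and 6760 CPM (line 794) in low-Trp53 libraries, against 20.2 and 25.5 CPM (line 650) and 44.7, 36.2 and 52.1 CPM (line 801) in high-Trp53 libraries. WT libraries lay between 30.5 and 219 CPM, with a median of 64.6. Gkn2 read 949 and 6.43 CPM (line 1270) and 144, 406 and 744 CPM (line 794) in low-Trp53 libraries, against 16.2 and 13.6 CPM (line 650) and 11.6, 10.1 and 7.78 CPM (line 801) in high-Trp53 libraries. WT libraries lay between 10.4 and 102 CPM, with a median of 22.6. For both genes library 2 of line 1270 was the lowest of all 20 libraries, and the other 4 low-Trp53 libraries were the highest. The log2 fold changes were 5.40 ± 0.82 for Gkn1 and 5.0 ± 0.59 for Gkn2, and 2.93 and 2.06 without library 1 of line 1270. The stretches before the starts of these neighbouring genes are printed because both genes were high in the same libraries (RefSeq GRCm38.p6, 250 bases each). Gkn1 lies at chr6:87350916-87351165 on the minus strand and Gkn2 at chr6:87373115-87373364 on the plus strand. Capitals mark the GATA-type motif AGATAA.
Gkn1: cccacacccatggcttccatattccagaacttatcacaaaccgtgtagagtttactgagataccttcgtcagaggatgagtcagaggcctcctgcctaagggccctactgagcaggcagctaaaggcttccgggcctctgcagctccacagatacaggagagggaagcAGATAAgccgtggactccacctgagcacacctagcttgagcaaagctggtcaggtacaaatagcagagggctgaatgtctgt
Gkn2: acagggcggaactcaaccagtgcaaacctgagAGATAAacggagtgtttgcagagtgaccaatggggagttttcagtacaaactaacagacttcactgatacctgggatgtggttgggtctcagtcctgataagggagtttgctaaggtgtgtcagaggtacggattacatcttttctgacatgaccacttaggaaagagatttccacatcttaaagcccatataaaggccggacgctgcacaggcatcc
The motif was searched on both strands, as AGATAA and TTATCT, which do not overlap in these stretches. Each stretch holds it 1 time, and 9.99% of 32851 promoters of this length hold it on either strand. Gkn3, the next gene of the cluster, did not separate the groups, with 1020 and 3290 CPM in lines 1270 and 794, against 1870 and 1710 CPM in lines 650 and 801. Antxr1, an anthrax toxin receptor that lies on the other side of Gkn1, read 10.3 and 17.8 CPM in lines 1270 and 794, against 1.73 and 7.24 CPM in lines 650 and 801.

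**Figure D2:**
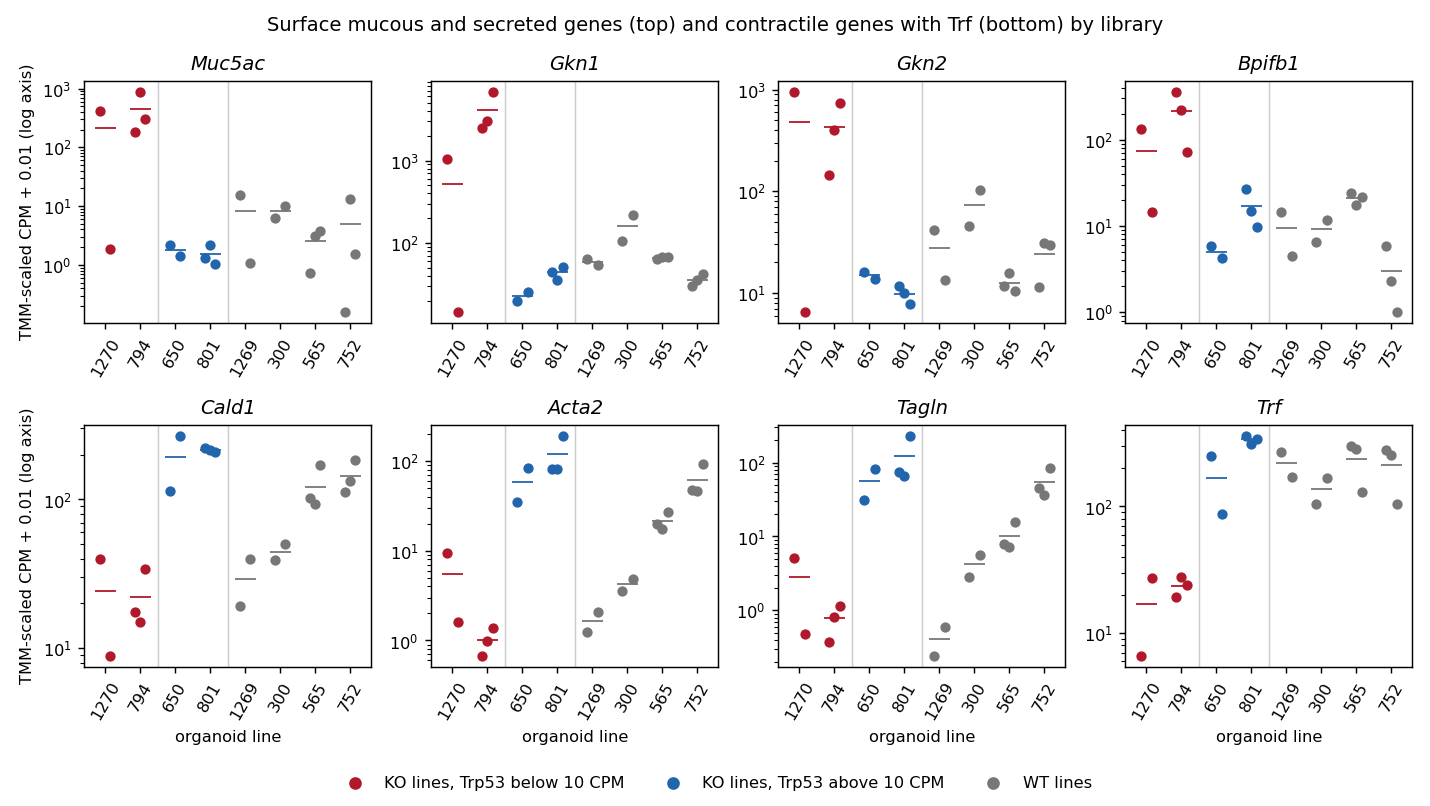
TMM-scaled CPM + 0.01 on log axes for 8 genes in 20 libraries, grouped by organoid line. Points are libraries and short lines are means over the libraries of a line. Library 2 of line 1270 lies apart from library 1 in the top row, while all low-Trp53 libraries lie below all high-Trp53 libraries in the bottom row.

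Of the 11 pit cell genes tested, both low-Trp53 lines lay above both high-Trp53 lines for 5 (11% of all genes). They lay below for 0 (12.9% of all genes). The median log2 fold change was 0.68, against 0.01 over all genes. The 5 separated genes were Muc5ac, Gkn1, Gkn2, Tff1, a trefoil peptide that stayed under 1 CPM here, and Dpcr1, a mucin-like membrane protein. By library Dpcr1 overlapped, at 32 to 464 CPM in low-Trp53 and 42.3 to 246 CPM in high-Trp53 libraries. Of the 11 genes, 0 passed edgeR's adjusted threshold and 4 were higher at an unadjusted p under 0.05 (1.17% of all genes). DESeq2 called 3, all higher (0.219% of all genes). Without library 1 of line 1270 the count of separated genes was 1 and the median 0.09. Muc1, a membrane mucin, did not separate, with 1790 and 1190 CPM in lines 1270 and 794, against 1780 and 1800 CPM in lines 650 and 801. In bulk samples, more cells of a type and more RNA per cell cannot be told apart.

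The other ranked higher genes come from no list fixed for a pathway. Bpifb1, a secreted mucosal defence protein, read 133 and 14.3 CPM (line 1270) and 356, 221 and 71.7 CPM (line 794) in low-Trp53 libraries, against 5.79 and 4.27 CPM (line 650) and 26.6, 14.8 and 9.65 CPM (line 801) in high-Trp53 libraries. Only library 2 of line 1270 overlapped the high-Trp53 libraries, and the log2 fold change of 3.64 ± 0.82 was 2.57 without library 1. Slco2a1, the prostaglandin transporter, read 38.7 and 1.55 CPM (line 1270) and 7.37, 9.10 and 3.99 CPM (line 794) in low-Trp53 libraries, against 1.03 to 2.29 CPM in high-Trp53 libraries. Its log2 fold change of 2.73 ± 0.55 was 1.00 without library 1 of line 1270. Bche, butyrylcholinesterase, and Rragd, a GTPase that signals amino acids to mTORC1, were the 2 of these 12 genes with all low-Trp53 libraries above all high-Trp53 libraries. Bche read 38.0 and 16.8 CPM (line 1270) and 38.0, 46.9 and 27.4 CPM (line 794) in low-Trp53 libraries, against 12.9 and 8.54 CPM (line 650) and 12.5, 14.4 and 4.23 CPM (line 801) in high-Trp53 libraries. Rragd read 12.9 and 16.3 CPM (line 1270) and 26.3, 33.0 and 16.4 CPM (line 794) in low-Trp53 libraries, against 8.07 and 5.08 CPM (line 650) and 7.13, 8.00 and 4.23 CPM (line 801) in high-Trp53 libraries. The log2 fold changes were 1.46 ± 0.22 for Bche and 1.5 ± 0.31 for Rragd, and 1.22 to 1.70 and 1.10 to 1.89 with each line left out in turn. Nid2, a basement membrane protein, Tcea3, an elongation factor, Fzd4, a Wnt receptor, Antxr1, and Cadps2, which primes secretory vesicles, had log2 fold changes between 1.02 and 1.91. For all 12 genes both low-Trp53 lines lay above all WT lines. The 12 were ranked on the difference between low-Trp53 and high-Trp53 lines, so this count is not independent of the choice. Its share over all genes is not given here.

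Lower in low-Trp53 lines were genes of the contractile cytoskeleton. Cald1, caldesmon, an actin-binding regulator of contraction, read 39.5 and 8.87 CPM (line 1270) and 17.4, 15.1 and 34.1 CPM (line 794) in low-Trp53 libraries. It read 114 and 269 CPM (line 650) and 222, 216 and 209 CPM (line 801) in high-Trp53 libraries, and from 19.2 to 185 with a median of 97.8 CPM in WT libraries. The low-Trp53 and high-Trp53 libraries did not overlap, and WT libraries reached into both ranges. The log2 fold change was -3.22 ± 0.27 (edgeR adjusted p = 0.0721), and -3.88 without library 1 of line 1270. Acta2, smooth muscle actin, read 9.36 and 1.61 CPM (line 1270) and 0.663, 0.966 and 1.37 CPM (line 794) in low-Trp53 libraries, against 35.3 and 82.7 CPM (line 650) and 80.5, 82.3 and 192 CPM (line 801) in high-Trp53 libraries. Tagln, transgelin, read 5.12 and 0.476 CPM (line 1270) and 0.368, 0.805 and 1.14 CPM (line 794) in low-Trp53 libraries, against 31.5 and 81.3 CPM (line 650) and 74.1, 65.8 and 232 CPM (line 801) in high-Trp53 libraries. Neither gene overlapped between low-Trp53 and high-Trp53 libraries. Without library 1 of line 1270 the log2 fold change of -5.01 was -5.99 for Acta2, and that of -5.67 was -7.02 for Tagln. WT libraries reached from 1.24 to 92.4 CPM for Acta2 and from 0.232 to 84.2 CPM for Tagln.

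All 6 smooth muscle genes tested were lower in both low-Trp53 lines than in both high-Trp53 lines (12.9% of all genes). Their median log2 fold change was -3.45. Acta2, Tagln, Cnn1 and Myh11, 4 of the 6, separated library by library (2.17% of all genes). DESeq2 called 4 of the 6, all lower (1.11% of all genes), and edgeR's adjusted threshold passed 0. At an unadjusted p under 0.05 there were 5, all lower (3.75% of all genes). Against WT lines the median was -1.34 in low-Trp53 lines and 2.56 in high-Trp53 lines, the same 4 WT lines serving both. The same genes mark smooth muscle cells, another type that a culture from stomach could hold. Summed over its 9 genes in the table, smooth muscle markers read 9.74 and 5.76 CPM of the line total in lines 1270 and 794, 123 and 236 CPM in lines 650 and 801, and 5.76 to 120 CPM in WT lines. Of its defining markers, Lmod1 was at 0 in low-Trp53 lines, and Des, the muscle filament desmin, and Actg2, enteric actin, stayed under 1 CPM in every KO line. The 14 fibroblast markers summed to 8.61 and 33.9 CPM in lines 1270 and 794, 46.0 and 34.8 CPM in lines 650 and 801, and 6.66 to 10 CPM in WT lines, with Dcn and Lum, matrix proteoglycans, under 1 CPM in every line. Of these markers, Col1a1, a collagen chain, read 2.82 and 5.71 CPM of the line total in lines 1270 and 794, 17.9 and 8.09 CPM in lines 650 and 801, and 2.11 to 3.27 CPM in WT lines. Thy1, a surface glycoprotein, and Sparc, a matrix protein, were lower in all low-Trp53 than in all high-Trp53 libraries. Sparc read 0.371 to 1.14 CPM in low-Trp53, 1.32 to 3.73 CPM in high-Trp53 and 0.217 to 0.808 CPM in WT libraries. Of the 9 fibroblast genes tested, 3 were lower in both low-Trp53 lines (12.9% of all genes), 0 were higher and 6 overlapped. DESeq2 called 0 of the 9. Their median log2 fold change was -2.58 for line 1270 over 650 and 0.40 for line 794 over 801. The part of such cells in these differences was not tested. Among 9 genes of mesenchymal transition, 3 were lower in both low-Trp53 lines (12.9% of all genes) and 0 higher (11% of all genes). Their median log2 fold change was -0.61, and DESeq2 called 2, both lower (1.11% of all genes). Fn1, the matrix protein fibronectin, read 404 and 126 CPM (line 1270) and 737, 680 and 898 CPM (line 794) in low-Trp53 libraries, against 1060 and 1730 CPM (line 650) and 1310, 1700 and 1580 CPM (line 801) in high-Trp53 libraries, without overlap.

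Of the other ranked lower genes, Cyr61 is on the YAP target list and Sprr1a on the squamous list, and both are described with those lists. The rest come from no list fixed for a pathway. Trf, transferrin, the iron carrier of plasma, read 6.61 and 27.2 CPM (line 1270) and 19.4, 28.0 and 23.8 CPM (line 794) in low-Trp53 libraries. It read 251 and 86.9 CPM (line 650) and 363, 314 and 340 CPM (line 801) in high-Trp53 libraries, and from 104 to 300 with a median of 212 CPM in WT libraries. All low-Trp53 libraries lay below every high-Trp53 and WT library. The log2 fold change was -3.61 ± 0.31 (edgeR adjusted p = 0.0721), and -4.29 without library 2 of line 1270. Dpysl3, a cytoskeletal protein of growing neurites, read 22.9 and 4.29 CPM (line 1270) and 5.89, 5.64 and 10.3 CPM (line 794) in low-Trp53 libraries, against 51.0 and 97.0 CPM (line 650) and 62.4, 68.0 and 66.2 CPM (line 801) in high-Trp53 libraries. The groups did not overlap, and the log2 fold change was -2.89 ± 0.24 (edgeR adjusted p = 0.0721), and -3.65 without library 1 of line 1270. Mcam, a cell adhesion molecule, read 7.87 and 0.536 CPM (line 1270) and 0.663, 1.05 and 4.22 CPM (line 794) in low-Trp53 libraries, against 22.5 and 59.0 CPM (line 650) and 28.8, 30.5 and 62.6 CPM (line 801) in high-Trp53 libraries. Itgb3, the integrin beta 3 subunit, read 1.41 and 0.476 CPM (line 1270) and 0.884, 0.725 and 1.82 CPM (line 794) in low-Trp53 libraries, against 7.92 and 15.8 CPM (line 650) and 11.5, 10 and 17.1 CPM (line 801) in high-Trp53 libraries. Neither adhesion gene overlapped between the groups, and the log2 fold change of -3.87 for Mcam was -5.13 without library 1 of line 1270. The serpins Serpinb9b and Serpinb6b and Akap5, a kinase anchoring protein, also separated library by library, with log2 fold changes of -2.30 ± 0.23, -2.71 ± 0.35 and -2.84 ± 0.27, that of Serpinb9b being -3.01 without library 1 of line 1270. Dbn1, the actin-binding protein drebrin, read 3.92 and 15.7 CPM in lines 1270 and 794, against 22.7 and 49.3 CPM in lines 650 and 801, and its libraries overlapped. Of the 11 ranked lower genes other than Mgmt, both low-Trp53 lines lay below all WT lines for 10 (6.49% of all genes). Both high-Trp53 lines lay above all WT lines for 6. These counts are likewise not independent of the ranking, and the share of all genes above all WT lines is not given here.

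The coactivator YAP drives genes of growth and matrix contact. Of the 14 YAP target genes tested, 7 were lower in both low-Trp53 lines than in both high-Trp53 lines (12.9% of all genes) and 0 higher (11% of all genes), with a median log2 fold change of -0.86. EdgeR's adjusted threshold passed 0 and DESeq2 called 4, all lower (1.11% of all genes). Cyr61, a matricellular protein, read 63.2 and 33.0 CPM (line 1270) and 59.0, 34.5 and 128 CPM (line 794) in low-Trp53 libraries, against 118 and 300 CPM (line 650) and 208, 183 and 283 CPM (line 801) in high-Trp53 libraries. Only library 3 of line 794 overlapped the lowest high-Trp53 library, and the log2 fold change was -1.89 ± 0.21. Msln, the surface protein mesothelin, read 845 and 911 CPM in lines 1270 and 794, against 1820 CPM in each of lines 650 and 801. By library Msln overlapped, at 600 to 1680 CPM in low-Trp53 and 1390 to 2420 CPM in high-Trp53 libraries. Of 9 squamous epithelium genes, 4 were lower in both low-Trp53 lines (12.9% of all genes) and 0 higher (11% of all genes). The 9 genes had a median of -1.13. EdgeR's adjusted threshold passed 0 of them, and DESeq2 called 2, both lower (1.11% of all genes). The count of 4 was 2 without library 2 of line 1270. Sprr1a, a cornified envelope protein, read 128 and 155 CPM (line 1270) and 289, 347 and 506 CPM (line 794) in low-Trp53 libraries, against 660 and 1060 CPM (line 650) and 1020, 1170 and 1110 CPM (line 801) in high-Trp53 libraries. Krt4, a keratin of the squamous lining, read 18.7 and 44.2 CPM (line 1270) and 6.78, 7.81 and 5.59 CPM (line 794) in low-Trp53 libraries, against 87.6 and 56.0 CPM (line 650) and 88.1, 112 and 75.6 CPM (line 801) in high-Trp53 libraries. Neither overlapped between the groups. Of 10 keratins tested, 7 were lower in both low-Trp53 lines (12.9% of all genes). They included Krt16, a stress keratin. Krt16 read 0.971 and 0.605 CPM in lines 1270 and 794, against 5.51 and 5.64 CPM in lines 650 and 801. The count of 7 was 3 without the 6 last-numbered libraries. Of the 10 keratins edgeR's adjusted threshold passed 0 and DESeq2 called 1, which was lower (1.11% of all genes). Egfr, the EGF receptor, read 60.9 and 49.4 CPM in lines 1270 and 794, against 118 and 119 CPM in lines 650 and 801, with no overlap between libraries.

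Many p53 targets of arrest, repair and feedback read below WT on both KO sides, and some read lower in low-Trp53 than in high-Trp53 lines. Of 36 tested genes of arrest, repair and feedback, both low-Trp53 lines lay below both high-Trp53 lines for 16 (12.9% of all genes). They lay above for 0 (11% of all genes), and the median log2 fold change was -0.48. The median was -0.74 for line 1270 over 650 and -0.23 for line 794 over 801. EdgeR's adjusted threshold passed 0, with 4 at an unadjusted p under 0.05, all lower (3.75% of all genes). DESeq2 called 1, which was lower (1.11% of all genes). Set against WT, both low-Trp53 lines lay below all 4 WT lines for 24 of the 36 genes (6.49% of all genes) and both high-Trp53 lines for 24 (6.53% of all genes). The median log2 fold change against WT was -1.02 in low-Trp53 lines and -0.83 in high-Trp53 lines, from the same WT lines. Because the lines were chosen on Trp53, this list is not independent of the choice.

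Eda2r, a death-domain receptor of ectodysplasin A2, showed the widest gap among these targets with counts on both sides. It read 0.223 and 0.119 CPM (line 1270) and 0.663, 0.483 and 0.228 CPM (line 794) in low-Trp53 libraries. It read 13.9 and 21.0 CPM (line 650) and 9.34, 6.80 and 5.08 CPM (line 801) in high-Trp53 libraries, and from 32.8 to 134 with a median of 50.8 CPM in WT libraries. The low-Trp53, high-Trp53 and WT libraries formed non-overlapping ranges in that order. The log2 fold change between the KO sides was -5.09 ± 0.87 and its edgeR adjusted p was 0.438, while DESeq2 gave 4.85e-10. Ano3, a membrane scramblase that belongs to the list, had 0 counts in low-Trp53 lines, 19 in high-Trp53 lines and 672 in WT lines. From a floor of 3 counts over the low-Trp53 lines, it was at least 7.82-fold lower than in high-Trp53 lines. Ccng1, Phlda3, Aen and Ak1, named after their values were seen, were the other targets with no overlap between libraries. Over all genes, 2.17% had all low-Trp53 libraries below all high-Trp53 libraries. Ccng1, cyclin G1, read 77.9 to 94.7 CPM in low-Trp53 libraries, 100 to 285 CPM in high-Trp53 libraries and 378 to 1240 CPM in WT libraries. Phlda3, an inhibitor of AKT signalling, read 2.52 to 16.1 CPM in low-Trp53 libraries, 18.5 to 30.9 CPM in high-Trp53 libraries and 38.5 to 128 CPM in WT libraries. Ephx1, an epoxide hydrolase, had the second smallest p of the list, with a log2 fold change of -0.86 ± 0.25. It read 73.3 and 53.8 CPM in lines 1270 and 794, against 157 and 82.2 CPM in lines 650 and 801. By library Ephx1 overlapped, at 42.9 to 82.3 CPM in low-Trp53 and 78.6 to 185 CPM in high-Trp53 libraries.

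Several classic targets did not separate the KO sides. Cdkn1a, the arrest gene p21, read 26.9 and 37.5 CPM (line 1270) and 232, 255 and 114 CPM (line 794) in low-Trp53 libraries, against 219 and 168 CPM (line 650) and 108, 86.8 and 77.0 CPM (line 801) in high-Trp53 libraries. It was lower in the low-Trp53 line of the non-dysplastic pair and higher in that of the dysplastic pair. Mdm2, the ligase that degrades p53, read 39.3 and 64.0 CPM in lines 1270 and 794, against 77.5 and 59.8 CPM in lines 650 and 801. Sesn2, a stress-induced sestrin, read 17.8 and 23 CPM in lines 1270 and 794, against 22.7 and 18.2 CPM in lines 650 and 801, with a log2 fold change of -0.01 ± 0.37. Of 16 apoptosis targets, 5 were lower (12.9% of all genes) and 1 higher (11% of all genes) in both low-Trp53 lines. The median was -0.26, at -0.34 for line 1270 over 650 and 0.20 for line 794 over 801. In edgeR and DESeq2 0 passed. Both low-Trp53 lines lay below all WT lines for 6 of the 16 (6.49% of all genes). Both high-Trp53 lines did so for 4 (6.53% of all genes). The medians against WT were -0.45 in low-Trp53 and -0.23 in high-Trp53 lines. The count of 5 was 3 without library 2 of line 1270, and 3 without the 6 last-numbered libraries. Bax, an effector of apoptosis, was among the 5. It read 63.9 and 81.0 CPM in lines 1270 and 794, against 103 and 82.2 CPM in lines 650 and 801. By library Bax overlapped, at 54.6 to 116 CPM in low-Trp53 and 68.5 to 135 CPM in high-Trp53 libraries. Cdkn2a, the cell-cycle brake encoding p16 and p19ARF, read 58.7 to 391 CPM in low-Trp53 libraries, 48.1 to 216 CPM in high-Trp53 libraries and 15.4 to 34.4 CPM in WT libraries, so the KO sides overlapped.

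**Figure D3:**
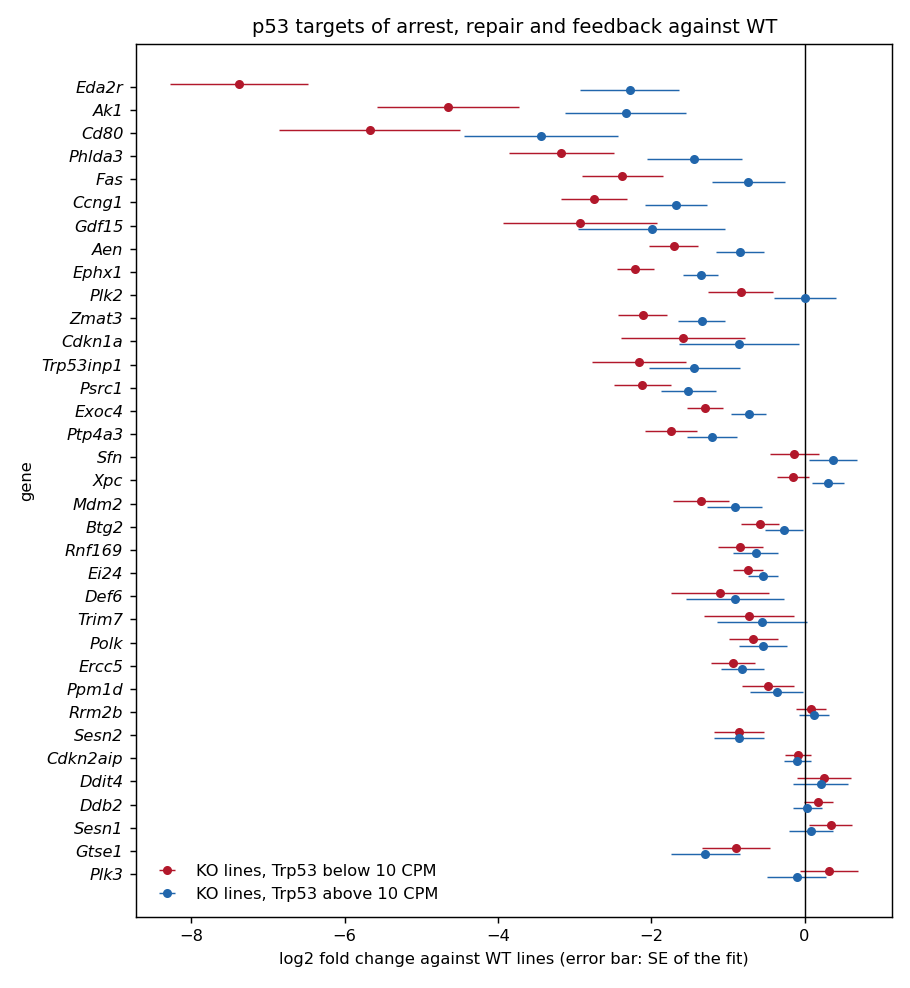
Log2 fold change against WT lines for p53 targets of arrest, repair and feedback, in low-Trp53 and high-Trp53 KO lines, with SE bars from the fit. Genes are ordered by the difference between the KO sides, the same WT lines serve both, and Ano3, with 0 counts in low-Trp53 lines, is not plotted. Eda2r lies at -7.38 in low-Trp53 lines and -2.28 in high-Trp53 lines, while Sesn2 lies at -0.86 in low-Trp53 lines and -0.85 in high-Trp53 lines.

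Cell-cycle genes read higher in the low-Trp53 line of the non-dysplastic pair, with medians near 0 or below it in the dysplastic pair. All 28 G2/M genes had positive log2 fold changes, with a median of 0.53. Of these, 12 were higher in both low-Trp53 lines (11% of all genes). The median was 1.02 for line 1270 over 650 and 0.01 for line 794 over 801. Birc5, survivin, read 110 and 105 CPM in lines 1270 and 794, against 65.0 and 84.2 CPM in lines 650 and 801. By library Birc5 overlapped, at 64.4 to 175 CPM in low-Trp53 and 42 to 115 CPM in high-Trp53 libraries. Birc5 was the only member at an unadjusted p under 0.05 (1.17% of all genes higher), and 0 passed in edgeR or DESeq2. All 30 S phase genes were positive with a median of 0.32, and their medians were 1.00 in the non-dysplastic and -0.22 in the dysplastic pair. Of the 30, 5 were higher in both low-Trp53 lines (11% of all genes). The count of 12 G2/M genes was 6 without the 6 last-numbered libraries and 0 without library 2 of line 1270, and that of 5 S phase genes 2 and 0. Of 24 mismatch and break repair genes, 9 were higher in both low-Trp53 lines (11% of all genes) and 0 lower (12.9% of all genes). The 24 genes had a median of 0.23. The 9 became 1 without the 6 libraries, and 3 and 0 without library 1 or 2 of line 1270. In 28 interferon response genes the pairs differed in sign, with medians of -0.30 for line 1270 over 650 and 0.82 for line 794 over 801, and 0 genes separated. That difference was not tested over the list.

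Some inflammatory genes under NF-kB read lower in low-Trp53 lines. Of 18 tested, all had negative log2 fold changes, 5 were lower in both low-Trp53 lines (12.9% of all genes) and 0 higher (11% of all genes), with a median of -0.82. The median was -1.06 for line 1270 over 650 and -0.16 for line 794 over 801. The count of 5 was 8 without library 1 of line 1270. EdgeR's adjusted threshold passed 0 and DESeq2 called 1, which was lower (1.11% of all genes). Icam1, a leukocyte adhesion receptor, read 42.1 and 37.7 CPM (line 1270) and 36.8, 30.2 and 30.0 CPM (line 794) in low-Trp53 libraries, against 44.3 and 56.0 CPM (line 650) and 93.4, 87.7 and 95.1 CPM (line 801) in high-Trp53 libraries. The groups did not overlap. Cxcl5, a neutrophil chemokine, read 10.1 and 45.3 CPM in lines 1270 and 794, against 78.4 and 128 CPM in lines 650 and 801. By library Cxcl5 overlapped, at 6.19 to 73.3 CPM in low-Trp53 and 64.3 to 133 CPM in high-Trp53 libraries. Immune cell markers summed to 16.7 and 32.2 CPM of the line total in lines 1270 and 794, 35.7 and 45.5 CPM in lines 650 and 801, and 26.3 to 66.3 CPM in WT lines, with Cd4, Cd8a, Lyz2 and Tyrobp at 0 in all KO lines. All 4 immune genes with enough counts to test had negative log2 fold changes, with a median of -1.43. Csf1r, a macrophage receptor, read 0.103 and 0.166 CPM of the line total in lines 1270 and 794, against 0.471 and 0.884 CPM in lines 650 and 801, with no overlap between libraries. Their part in the chemokine values was not tested. Of 10 endocrine genes tested, 9 had negative log2 fold changes. In both low-Trp53 lines 4 were lower (12.9% of all genes) and 1 higher (11% of all genes). The median was -1.60, and edgeR's adjusted threshold passed 0. DESeq2 called 1, which was higher (0.219% of all genes), and 0 lower. The gene higher in both low-Trp53 lines was Isl1, described below. Gast, which encodes gastrin, had 0 counts in low-Trp53 lines, 42 in high-Trp53 lines and 59 in WT lines, at least 17.3-fold lower than in high-Trp53 lines from a floor of 3 counts over the group. WT line 1269 also had 0 Gast counts in both libraries.

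Some genes read far higher in 1 low-Trp53 line than in the other. Olfm4, a stem cell marker of intestinal crypts, read 159, 199 and 105 CPM in line 794 and 0.446 and 0.0595 CPM in line 1270, against 0.0762 to 0.338 CPM in high-Trp53 libraries. Isl1, a LIM homeobox factor, read 17.5 and 22.4 CPM (line 1270) and 0.958, 0.886 and 0.798 CPM (line 794) in low-Trp53 libraries, against 0.0735 to 0.305 CPM in high-Trp53 libraries. All low-Trp53 libraries lay above all high-Trp53 libraries for Isl1, while WT line 1269, at 21.8 and 13.5 CPM, and WT line 300, at 2.39 and 1.88 CPM, lay above all libraries of line 794. Esam, an endothelial adhesion molecule named after its value was seen, read 177, 183 and 126 CPM in line 794 and 7.87 and 14.5 CPM in line 1270, against 6.12 to 13.3 CPM in high-Trp53 libraries. Relative to the line total, the 10 endothelial markers summed to 14.0 and 165 CPM in lines 1270 and 794, against 13.9 and 9.59 CPM in lines 650 and 801, and Esam alone made up 12.0 and 160 CPM in lines 1270 and 794. The endothelial cadherin Cdh5 read 0.0344 and 1.69 CPM in lines 1270 and 794, against 0.0856 and 0.102 CPM in lines 650 and 801.

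The size of the low-minus-high difference was compared between the non-dysplastic and dysplastic pairs in a fit with a mean for each KO line, whose spread comes from WT lines alone. EdgeR's test passed 0 genes. At an unadjusted p under 0.05 there were 1580 of 13475 genes, while 5% of the tested genes is 674. The comparison of low-Trp53 with high-Trp53 lines had 662 at that level. For the difference between the pairs DESeq2 called 113 higher and 290 lower. Against WT lines, with Mgmt left aside, edgeR passed 0 genes in low-Trp53 lines, where, Mgmt included, 326 were higher and 437 lower at an unadjusted p under 0.05. It passed 0 in high-Trp53 lines, where 384 were higher and 89 lower at that level. DESeq2 called 65 higher and 142 lower in low-Trp53 lines and 64 higher and 15 lower in high-Trp53 lines, from the same WT lines.

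**Figure D4:**
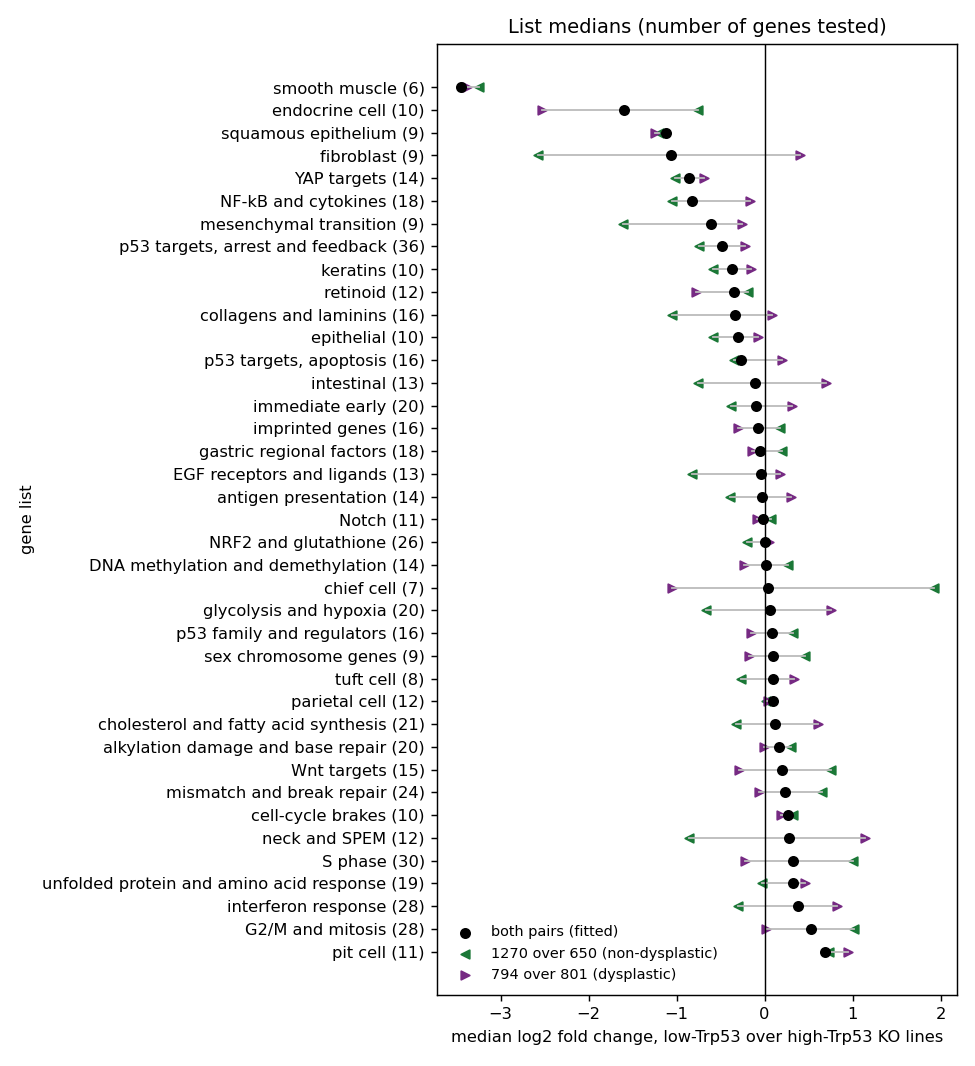
Median log2 fold change, low-Trp53 over high-Trp53 KO lines, for each gene list with at least 6 tested genes (number in brackets). Black points are medians from the fit to both pairs, triangles the medians of the non-dysplastic and the dysplastic pair. Smooth muscle genes lie lowest at -3.45 and pit cell genes highest at 0.68, and the interferon list has triangles on either side of 0.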

How the data were processed

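The deposited table holds raw read counts per gene symbol for 20 mRNA-seq libraries. The authors made these counts with bcl2fastq, STAR 2.5 and the mm9 build, per the submitters' processing notes. For the counter, its strand setting and the annotation, the sources used here give nothing. Library totals ran from 5669521 to 16323270 counts, and intervals and floors cover counting error only. No replicate pair agreed within sampling noise (chi-square per degree of freedom at least 6.107).

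Counts were summed per line, and edgeR 4.0.16 (TMM, default expression filter, robust quasi-likelihood) was fitted to 8 lines. The fit had a mean for each genotype and dysplasia class plus a low-Trp53 term among KO lines, leaving 3 residual degrees of freedom. Trp53 stayed in the fit but was left out of the adjustment and of the counts of genes. P-values were adjusted by Benjamini-Hochberg over 13475 genes. Alternatives were other scalings and filters, DESeq2 1.42.0, limma 3.58.1 (voom), KO lines alone, sex as a covariate, a replicate block and left-out lines or libraries (R 4.3.3, Python 3.11.15, scipy 1.17.1). The members and the 41 gene lists were chosen with earlier results of these data known.

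Named genes were Trp53 and Mgmt, up to 12 per direction among called genes or, since none was called, those with the smallest unadjusted p, a log2 fold change of at least 1 in size, average log2 CPM above 2 and separated lines, and up to 2 per list at an unadjusted p under 0.05. Other list members and neighbouring genes are named as examples, chosen after their values were seen. Promoter sequences are RefSeq's, matched by symbol (22452 of 24047 symbols matched, 1367 more by synonym).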

Additional observations from a re-analysis of the deposited data

Results flagged for a closer look

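Gkn1, a gastrokine of surface mucous cells, read 3760 CPM in line 794, far from the other KO lines, at 463 CPM in line 1270, 22.4 CPM in line 650 and 43.8 CPM in line 801. It was the only 1 of 48 sets of 4 lines examined in which a line stood apart by Dixon's criterion, here on CPM without logarithm. Chance meets this criterion in about 1 of 20 sets. The libraries of line 1270 themselves lay far apart for Gkn1, at 1040 and 14.5 CPM.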

How the results depend on the processing

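No adjusted edgeR call was made with any line left out, with other scalings, with a filter at 1 CPM or without the 6 last-numbered libraries. Higher and lower calls were 1 and 6 with no filter, 29 and 147 by DESeq2, 83 and 220 by limma-voom, and 3 and 0 for KO lines alone. With sex as a covariate they were 0 and 1, and without library 2 of line 1270 they were 1 and 0. Beyond the shift shared by the last-numbered libraries of 6 lines, replicate numbers were not taken as pairs, since same-number correlations ran from -0.86 to 0.84; limma-voom with a replicate block called 51 and 123. Unadjusted counts ranged over 107 to 648 higher and 343 to 844 lower with lines left out. They were 87 higher for KO lines alone, 241 without the 6 libraries, 706 with sex, 461 higher and 831 lower by limma-voom, and 396 higher with the replicate block. DESeq2 called 65 higher and 142 lower in low-Trp53 lines against WT, 64 and 15 in high-Trp53 lines against WT, and 113 and 290 between dysplasia classes. Without the 6 libraries, separated genes were 14 lower and 1 higher p53 arrest targets and 4 higher and 1 lower pit genes. There were 6 higher G2/M and 2 higher S phase genes. Without library 2 of line 1270 separated genes were 14 lower and 1 higher p53 arrest targets, 0 G2/M and 0 S phase genes. There were also 1 higher and 1 lower interferon and 2 lower squamous genes. Without library 1 of line 1270 there was 1 higher pit gene. The log2 fold change of Mgmt, which rests on 3 counts, was -6.59, and -6.71 by DESeq2, -5.97 by limma-voom, -6.01 with the replicate block, -5.98 without the 6 libraries, -6.75 with sex, and -6.12 and -7.36 without library 1 or 2 of line 1270. The cause of these shifts was not tested. With a KO line left out, the other dysplasia pair sets the fold change, so the ranked genes, chosen for 1 sign in both pairs, could not turn there. Of the p53 targets, Cdkn1a (-0.73) was 1.13 without line 650 or 1270, and Mdm2 (-0.44) was 0.09. The settings that leave out libraries of line 1270 were chosen after seeing the data. With 2 lines a side, an exact permutation test cannot go below 0.333.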
